A study of Mus musculus with 7 samples.

Results

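The genes of oxidative phosphorylation were compared between mouse embryonic stem cells (mESCs) and mouse embryonic fibroblasts (MEFs), by respiratory complex and by the genome that encodes them. Members were the rows whose gene symbol names subunits of complexes I to IV or of the ATP synthase (complex V), with pseudogene symbols left out. The rule uses no measured value, but it was drawn up with earlier results of these data known. This gave 98 of the 55484 genes in the count table, 13 encoded by mitochondrial DNA and 85 by the nuclear genome. Of the nuclear encoded members, 37 belonged to complex I, 4 to complex II, 8 to complex III, 19 to complex IV and 17 to complex V. The complex was assigned by symbol, which places Ndufa4 and Ndufa4l2 in complex I.

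The RNA counts cover 4 MEF and 3 mESC libraries. The study set its chromatin accessibility data of both cell types beside transcriptional data that its laboratory already held. Its figure legends give 3 biological replicates for the transcriptional data, and how these relate to the 4 MEF libraries is not given. MEFs are connective tissue cells cultured out of the embryo, and mESCs are derived from the early embryo and are pluripotent. All 7 samples carry the same genotype label, a C57/Bl6 background, and no treatment, time or age is given for either group. For the chromatin assay the study used flow cytometry, taking THY1+ cells among cultured fibroblasts and, for mESCs, THY1-/SSEA1+/EPCAM+ cells, and whether the cells of the RNA libraries were sorted the same way is not given in the sources used here. The extraction protocol of the labels speaks of young and aged HSCs, a cell type that none of the groups is labelled as. The study speaks of biological replicates for its transcriptional data, but the sources used here do not say whether the libraries of a group came from separate cultures or animals. The p-values measure the spread between these libraries, whatever its source. Count columns name the cell type but are not tied to single samples, and the libraries are called O1 to O4 (MEF) and Y1 to Y3 (mESC) after the ends of their column names.

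Oxidative phosphorylation is the last stage of aerobic energy production in the mitochondrial inner membrane. Complex I takes electrons from NADH and complex II from succinate, complex III passes them on to cytochrome c, and complex IV hands them to oxygen. The proton gradient built on the way drives the ATP synthase. Complex II is built from nuclear encoded subunits alone, whereas every other complex joins proteins of both genomes, and several complex IV subunits exist as tissue-specific paralogues. Pluripotent stem cells are known for relying on glycolysis alongside respiration.

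Library totals ran from 6528643 to 11441278 counts, and a floor of 3 counts in a library corresponded to 0.262 to 0.460 CPM (counts scaled to a common library size), which covers counting error only. Libraries of one cell type differed by more than sampling noise in every pair, with a chi-square per degree of freedom between 17.6 and 35.3. The cell type labels were checked against marker genes. All 10 tested pluripotency markers rose in mESCs, with summed levels of 3389 to 3658 CPM there and 44.9 to 47.9 CPM in MEFs, and all 11 fibroblast markers were lower, with 191 to 227 CPM against 25510 to 42090. Of 8 tested blood markers 1 rose and 3 fell, with sums of 58.5 to 65.2 CPM in mESCs and 128 to 169 CPM in MEFs. Endothelial markers summed to 16.9 to 26.2 CPM in MEFs and 31.8 to 55.5 CPM in mESCs (1 of 4 tested rose), and neuronal markers to 93.3 to 137 CPM and 41.6 to 47.9 CPM (1 of 4 rose and 2 fell), with Syp at or under 3 counts in every library.

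The mitochondrially encoded members could not be measured with these counts. All 37 genes of the mitochondrial chromosome were listed in the table, namely 13 messenger, 22 transfer and 2 ribosomal RNAs, and each was listed at 0 in all 7 libraries. This covers the complex I subunits mt-Nd1, mt-Nd2, mt-Nd3, mt-Nd4, mt-Nd4l, mt-Nd5 and mt-Nd6, the complex III subunit mt-Cytb, the catalytic complex IV subunits mt-Co1, mt-Co2 and mt-Co3, and the complex V subunits mt-Atp6 and mt-Atp8. Since genes that every cell with mitochondria transcribes were among them, no level or difference is given for any of the 13 members.

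Counts were present on a stretch of chromosome 1 of GRCm38 that holds nuclear copies of mitochondrial DNA. GENCODE M21 annotates 7 genes there whose closest mitochondrial genes are members, from Gm28439 to Gm29216, all on the minus strand. Of these, 5 matched their mitochondrial gene without a difference over their annotated length. The copy of mt-Co3, Gm28437 (chr1:24613189-24613971), had 0 differences in 783 bases, and the copy of mt-Nd3, Gm28438 (chr1:24612775-24613119), had 1 difference in 345 bases. The pairs below, read from GRCm38 and written 5′ to 3′ on the coding strand, show how little separates the genomes. The 60 bases shared by the ends of mt-Co3 (chrM:9330-9389) and Gm28437 (chr1:24613189-24613248) are identical, and capitals mark the only difference between the first 60 bases of mt-Nd3 (chrM:9459-9518) and Gm28438 (chr1:24613060-24613119), T3C counted from the first base of mt-Nd3.
mt-Co3 and Gm28437: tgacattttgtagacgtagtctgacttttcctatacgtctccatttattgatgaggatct
mt-Nd3: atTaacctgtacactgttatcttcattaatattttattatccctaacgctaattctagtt
Gm28438: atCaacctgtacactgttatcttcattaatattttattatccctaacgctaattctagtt

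Gm28437 held 27497, 11216, 24410 and 654 counts in MEF libraries O1 to O4, and 39141, 33844 and 29586 in mESC libraries Y1 to Y3. MEF library O4 stood far below the other MEF libraries, at 100 CPM of library totals against 1534 to 2660 CPM, and the mESC libraries lay at 3965 to 4777 CPM. The copy of mt-Atp6, Gm10925, ran the other way between MEF libraries, with 352, 1202, 365 and 1771 counts, against 535, 416 and 467 in mESCs. The copy of mt-Co1, Gm29216, differed from it in 6 of 492 bases and held 208, 123, 2789 and 330 counts in MEFs and 947, 927 and 1175 in mESCs, so that O3 was highest of all. Reads of a mitochondrial transcript and reads of these nuclear copies cannot be told apart where the sequence is identical, and the counts on the copies are given for neither genome.

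**Figure D1:**
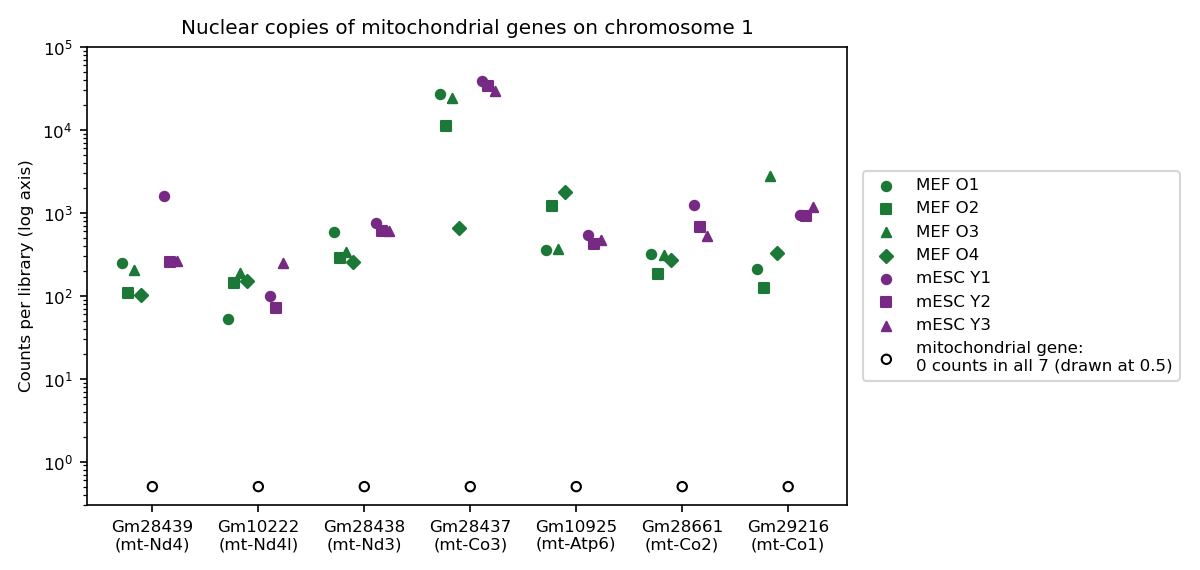
Counts in each library (log axis) on 7 nuclear copies of mitochondrial genes on chromosome 1, with the closest mitochondrial gene in brackets under each name. Open circles mark the mitochondrial genes, which were listed at 0 in all 7 libraries, and MEF library O4 holds 654 counts on Gm28437 where the other MEF libraries hold 11216 or more.

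After TMM scaling, smaller shares of the nuclear encoded members than of all genes were called in either direction, and the difference between these shares was not tested. Counts were scaled by TMM (trimmed mean of M values, a factor per library that centres the bulk of genes), and 81 of the 85 nuclear members had enough counts to be tested, beside 16580 genes in all. Relative to MEFs, 11 members were higher in mESCs, which is 13.6% of those tested, and 14 were lower, which is 17.3% (quasi-likelihood test of edgeR, with p-values adjusted over all tested genes by Benjamini-Hochberg, threshold 0.05). Among all tested genes the shares were 22.8% higher and 25.0% lower. The median log2 fold change of the tested members, mESC minus MEF, was -0.05, against 0.04 for all tested genes. A log2 fold change within 0.5 of zero was found for 59 members, 72.8% of those tested against 34.8% of all tested genes. Only 6 tested members passed 1 in either direction (7.41% against 42.7%), namely Cox7a1, Cox6b2 and Ndufa6 upward and Cox6a2, Cox4i2 and Ndufa5 downward. In bulk RNA, fewer cells of a type and less RNA per cell cannot be told apart.

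How many members rose or fell depended on the scaling. Using TMM in place of library totals alone moved mESC levels down by 0.28 against MEF levels, in log2 units. With library totals alone 26 members were higher (32.1%, against 31.4% of all tested genes) and 3 were lower (3.7%, against 20.1%), and 25 members changed sign. The 11 members called higher under TMM were all among the 26, and the 3 that stayed lower were Cox4i2, Cox6a2 and Ndufa5. In 19 members (23.5%, against 25.9% of all tested genes) every mESC library lay above every MEF library in TMM-scaled CPM, and in another 19 (23.5%, against 26.2%) every mESC library lay below.

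**Figure D2:**
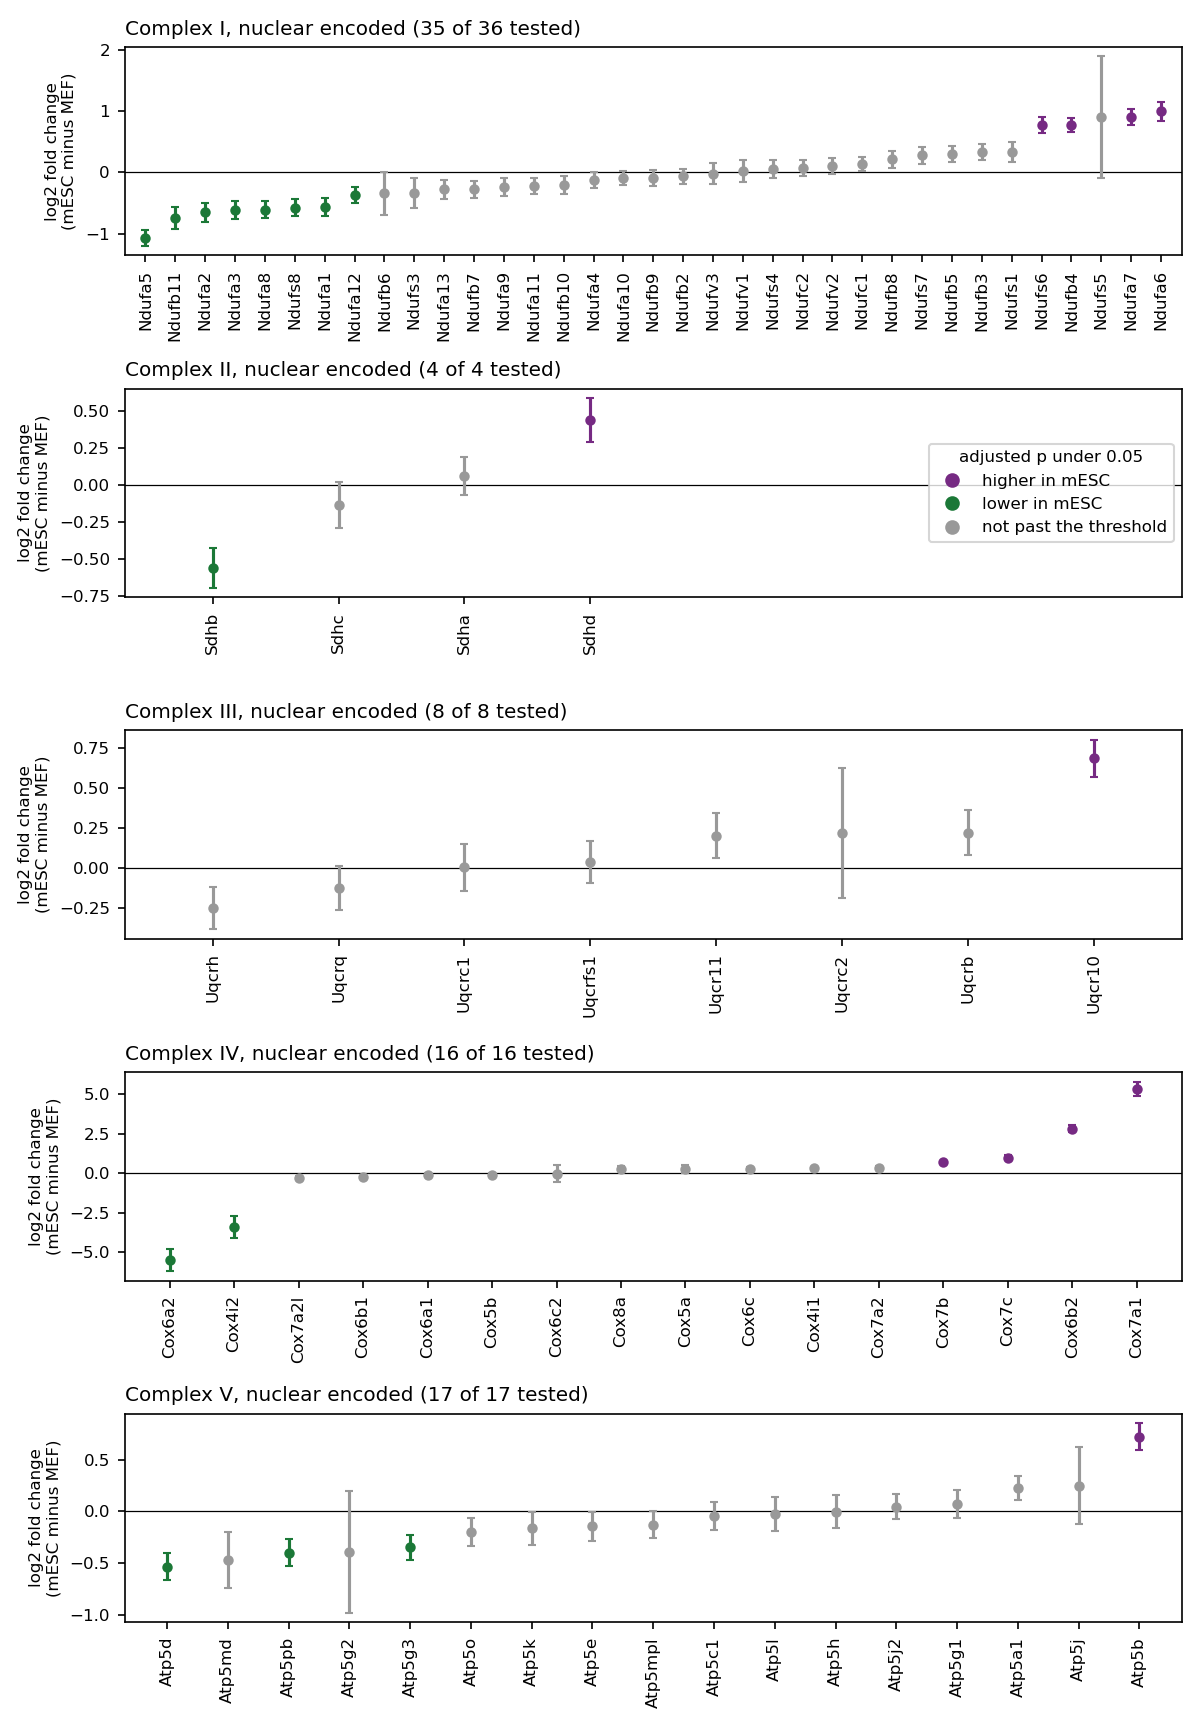
Log2 fold change (mESC minus MEF, TMM scaling) of 80 of the 81 tested nuclear encoded members by complex, with bars of ± 1 standard error, and with a separate vertical scale in each panel. Purple points are higher and green points lower in mESCs past the threshold of 0.05 on the adjusted p of edgeR, and with library totals alone, which shifts points up by about 0.28, 3 of the 14 green points remained lower.

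The summed level of the nuclear members showed the same dependence. They took 1.77%, 1.72%, 1.73% and 1.94% of all counts in the MEF libraries and 2.35%, 2.30% and 2.41% in the mESC libraries. Every mESC library was above every MEF library, with means of 1.79% ± 0.104 (SD, n = 4) and 2.35% ± 0.0543 (SD, n = 3), a ratio of 1.31. After TMM scaling the sums were 19540 ± 523 CPM and 21130 ± 174 CPM, a ratio of 1.08, still without overlap. Such sums are weighted toward abundant members. Of the 81 tested members, 44 had a log2 fold change below 0 under TMM and 37 had one above 0.

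By complex, the ratio of the summed shares was 1.24 for complex I, 1.22 for complex II, 1.35 for complex III, 1.47 for complex IV and 1.28 for complex V, and no complex had overlapping libraries on that scale. After TMM scaling the ratios were 1.03, 1.0, 1.11, 1.21 and 1.06. On the TMM scale the libraries of the cell types overlapped for complexes I, II and III, and did not overlap for complexes IV and V. In complex V the sums were 5066 CPM in MEFs and 5351 CPM in mESCs, of which Atp5b alone took 884.5 and 1458 CPM. Of the 17 tested members of complex V, 12 had a log2 fold change below 0 and 5 had one above 0. Complex IV, with 4448 ± 127 CPM in MEFs and 5392 ± 107 CPM in mESCs, had the largest ratio on both scales. Of these sums Cox7b alone took 735 and 1175 CPM. Among the 16 tested members of complex IV, 7 had a log2 fold change below 0 and 9 had one above 0. These sums carry no test, because the members were chosen with results of these data known.

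**Figure D3:**
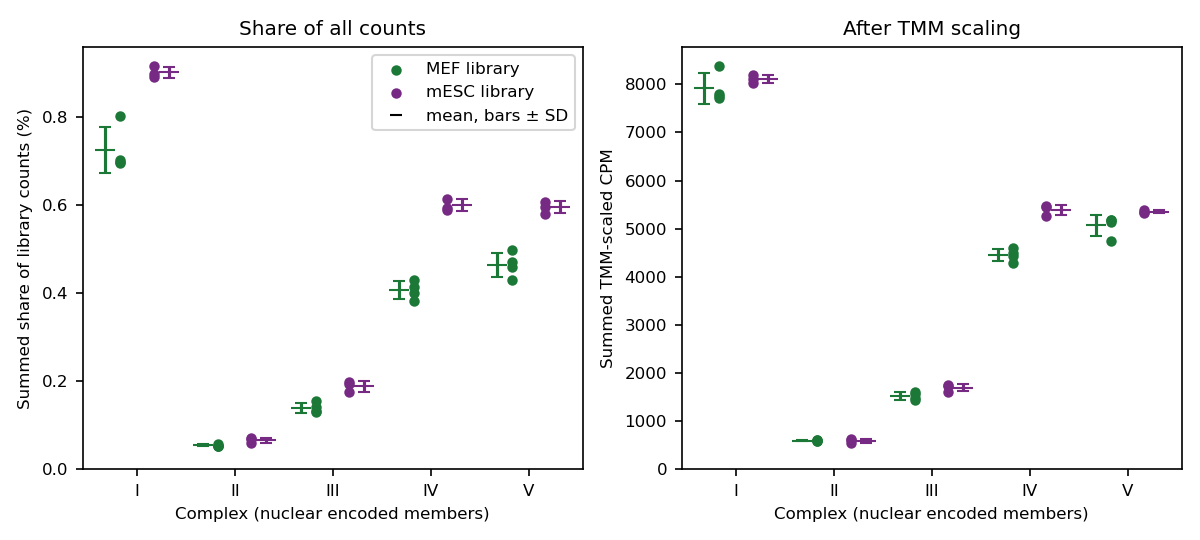
Summed level of the nuclear encoded members of each complex, as percent of all counts (left) and as TMM-scaled CPM (right), with 1 point per library and the mean ± SD beside the points (4 MEF and 3 mESC libraries). On the left every complex has its mESC libraries above its MEF libraries, and on the right only complexes IV and V keep the cell types apart.

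Complex I, the entry point for electrons of NADH, had 4 members higher and 8 lower among 36 tested, or 11.1% and 22.2%, against 22.8% and 25.0% of all tested genes. Ndufa6, an accessory subunit that holds the acyl carrier protein on the matrix arm, had 227, 199, 243 and 306 CPM in MEFs and 454, 499 and 513 CPM in mESCs. The groups were apart, and its log2 fold change of 1.0 (standard error, SE, 0.156, Benjamini-Hochberg adjusted p = 0.00036 by the edgeR quasi-likelihood test) was the largest rise called in complex I. Ndufa7, another accessory subunit of the matrix arm, had 358 to 467 CPM in MEFs and 712 to 785 CPM in mESCs. Ndufb4 of the membrane arm rose from 217 ± 11.1 CPM (SD, n = 4) to 372 ± 20.7 CPM (SD, n = 3), and the zinc-binding subunit Ndufs6 from 231 ± 17.9 to 394 ± 40.1 CPM.

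Ndufa5, an accessory subunit of the matrix arm, had 331, 339, 290 and 331 CPM in MEFs and 162, 141 and 157 CPM in mESCs. It was lower in every mESC library and had a log2 fold change of -1.07 (SE 0.131, Benjamini-Hochberg adjusted p = 6.55e-05 by the edgeR quasi-likelihood test). It was also the only complex I member that stayed lower with library totals alone, at -0.79. Ndufb11 of the membrane arm fell from 44.6 ± 6.16 to 26.6 ± 2.46 CPM and Ndufa2, a matrix arm subunit with a thioredoxin-like fold, from 236 ± 36.8 to 150 ± 3.92 CPM under TMM. The remaining 5 that were lower under TMM, Ndufa3, Ndufa8, Ndufs8, Ndufa1 and Ndufa12, had log2 fold changes between -0.61 and -0.36, and with library totals alone none of them, nor Ndufb11 or Ndufa2, passed the threshold. The call for Ndufa12 was also lost when any of 6 libraries, all but O3, was left out (edgeR adjusted p = 0.0515 to 0.150).

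The core subunits of complex I perform its catalysis, and most of the nuclear encoded ones carry flavin or iron-sulfur clusters. Of the 6 nuclear encoded core subunits described here, Ndufs1, Ndufs3, Ndufs7, Ndufs8, Ndufv1 and Ndufv2, only Ndufs8, which holds a pair of iron-sulfur clusters, passed the threshold under TMM, with 167 to 193 CPM in MEFs and 116 to 126 CPM in mESCs and a log2 fold change of -0.57. Ndufs1 had 55.0 to 78.9 CPM in MEFs and 80.0 to 91.0 CPM in mESCs, and Ndufs7 had 85.4 to 110 and 112 to 124 CPM. Both kept the cell types apart without passing the threshold under TMM, with log2 fold changes of 0.34 and 0.28, and both passed it with library totals alone, at 0.62 and 0.56. Ndufv2, with 204 to 258 CPM in MEFs and 224 to 250 CPM in mESCs, overlapped and also passed with library totals alone, at 0.39. Ndufv1, which binds NADH, had means of 60.5 ± 8.93 and 61.5 ± 8.46 CPM with overlapping libraries.

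Complex II, which oxidizes succinate, had 1 member higher and 1 lower among 4 tested, 25.0% each, against 22.8% and 25.0% of all tested genes. The iron-sulfur subunit Sdhb had 186, 171, 191 and 203 CPM in MEFs and 124, 121 and 137 CPM in mESCs, with a log2 fold change of -0.56 (Benjamini-Hochberg adjusted p = 0.00574 by the edgeR quasi-likelihood test). The membrane anchor Sdhd went the other way, with 187, 206, 157 and 159 CPM in MEFs and 256, 214 and 251 CPM in mESCs, and a log2 fold change of 0.44 (adjusted p = 0.0311 by the same test). No library of the other cell type fell into the range of either gene, although for Sdhd the gap between O2 and Y2 was small. The call for Sdhd was lost when O3, O4, Y1 or Y3 was left out (edgeR adjusted p = 0.0708 to 0.114) and with the filter of 1 count (0.0907). With library totals alone Sdhb kept its sign at -0.27 without passing the threshold. The flavoprotein Sdha was at 123 ± 6.26 CPM (SD, n = 4) and 128 ± 2.5 CPM (SD, n = 3), and Sdhc had overlapping libraries.

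In complex III 1 of 8 tested members was higher in mESCs (12.5%) and none was lower, against 22.8% and 25.0% of all tested genes. Uqcr10, a small membrane subunit, had 328, 281, 291 and 306 CPM in MEFs and 482, 479 and 490 CPM in mESCs, and a log2 fold change of 0.68 (SE 0.115, Benjamini-Hochberg adjusted p = 0.000638 by the edgeR quasi-likelihood test). The Rieske iron-sulfur protein Uqcrfs1 had 166 ± 10.8 and 170 ± 11.9 CPM. The remaining members had log2 fold changes between -0.25 and 0.22. Cyc1, the cytochrome c1 of this complex, is not reached by the symbol rule and rose from 209 ± 15.0 to 289 ± 13.3 CPM, a log2 fold change of 0.47.

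Complex IV, cytochrome c oxidase, had 4 members higher (25.0%) and 2 lower (12.5%) among 16 tested. The shares of all tested genes were 22.8% and 25.0%. Complex IV held 4 of the 6 members whose log2 fold change passed 1 in either direction. That is 4 of its 16 tested members, while 42.7% of all tested genes passed 1. All 4 were minor paralogues of subunits that come in several forms. Cox7a1, known as the heart and skeletal muscle form of subunit VIIa, had 14, 20, 8 and 35 counts in MEFs and 777, 1152 and 829 in mESCs, or 1.35, 3.06, 0.963 and 5.59 CPM against 84.6, 132 and 98.3 CPM. Every mESC library lay far above every MEF library, and the log2 fold change was 5.32 (SE 0.463, Benjamini-Hochberg adjusted p = 5.82e-06 by the edgeR quasi-likelihood test). Cox6b2, known as the testis form of subunit VIb, had 12.9, 23.7, 27.6 and 21.6 CPM in MEFs and 155, 171 and 125 CPM in mESCs, a log2 fold change of 2.81 (SE 0.245, adjusted p = 5.84e-06 by the same test).

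A further pair of minor paralogues, Cox6a2 and Cox4i2, went the other way. Cox6a2, known as the heart and skeletal muscle form of subunit VIa, had 53, 24, 79 and 76 counts in MEFs and 1, 1 and 2 in mESCs, and a fitted log2 fold change of -5.51 (Benjamini-Hochberg adjusted p = 8.16e-05 by the edgeR quasi-likelihood test). All mESC libraries were under the floor of 3 counts, so this size depends on the prior count of the fit. Cox4i2, known as the form of subunit IV found in lung and under low oxygen, had 35, 13, 42 and 61 counts in MEFs and 6, 2 and 4 in mESCs, with a log2 fold change of -3.42. Cox6c2, a low-count form beside Cox6c, had 10, 10, 29 and 15 counts in MEFs and 16, 19 and 18 in mESCs, with overlapping libraries and a log2 fold change of -0.05. Of the 50-base sequences in its transcripts 52.8% also occur in Cox6c, and how this bears on its level was not tested. Thus the paired muscle forms Cox7a1 and Cox6a2 were at opposite ends of the comparison. Of 3 tested striated muscle markers 2 were lower in mESCs, and the remaining one had a log2 fold change of 1.43 without a call. Actn2 was called higher when O3 was left out (log2 fold change 2.31, edgeR adjusted p = 0.0134). The 7 listed muscle markers summed to 26.0 to 41.7 CPM in MEFs and 7.35 to 15.1 CPM in mESCs. Their part in the levels of Cox6a2 and Cox7a1 was not tested.

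In every paralogue family compared but that of Cox7b, the form with the most counts had no call under TMM. Cox4i1 had 535 to 637 CPM in MEFs and 693 to 788 CPM in mESCs, without overlap and just short of the threshold (log2 fold change 0.30, Benjamini-Hochberg adjusted p = 0.0533 by the edgeR quasi-likelihood test). Cox7a2 had 414 to 519 and 542 to 682 CPM, also without overlap (adjusted p = 0.0607 by the same test), and both passed with library totals alone. Cox6b1 had 526 ± 9.88 CPM in MEFs (SD, n = 4) and 438 ± 22.9 CPM in mESCs (SD, n = 3), a log2 fold change of -0.27 that turned to 0.02 with library totals alone. Cox6a1, Cox8a and Ndufa4, the last now counted as a complex IV subunit, had overlapping libraries. By its symbol Ndufa4 stayed with complex I in all counts and sums given here.

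The Cox7b gene, which encodes a small transmembrane subunit, did move. It had 763, 745, 758 and 673 CPM in MEFs and 1154, 1188 and 1184 CPM in mESCs, with a log2 fold change of 0.68 (SE 0.103). Cox7c, another small subunit, had 136, 106, 123 and 132 CPM in MEFs and 218, 239 and 273 CPM in mESCs, with a log2 fold change of 0.97. For Cox7c 40.8% of the last 500 bases of its transcripts, counted as 50-base sequences, occur in other annotated genes too, and the deposited counts hold uniquely mapped reads only. How this bears on the level of Cox7c was not tested.

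Low-count members were named without an edgeR test, and the tests of shares within families below include them. Cox7b2 and Cox8c, both known from testis, had 0 counts in all 4 MEF libraries, which a floor of 3 counts bounds at 0.262 to 0.460 CPM. In mESCs Cox7b2 had 14, 23 and 6 counts and Cox8c 14, 13 and 2. Cox8b, a muscle form of subunit VIII, had 1 count in O1, 1 in Y2 and 0 in the other libraries. Ndufa4l2, a paralogue of Ndufa4 known to respond to low oxygen, had 10, 8, 12 and 16 counts in MEFs and 8, 6 and 8 in mESCs. These 4 genes missed the filter on low counts in edgeR, and DESeq2, which tested 84 nuclear members, called Cox7b2 and Cox8c higher.

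**Figure D4:**
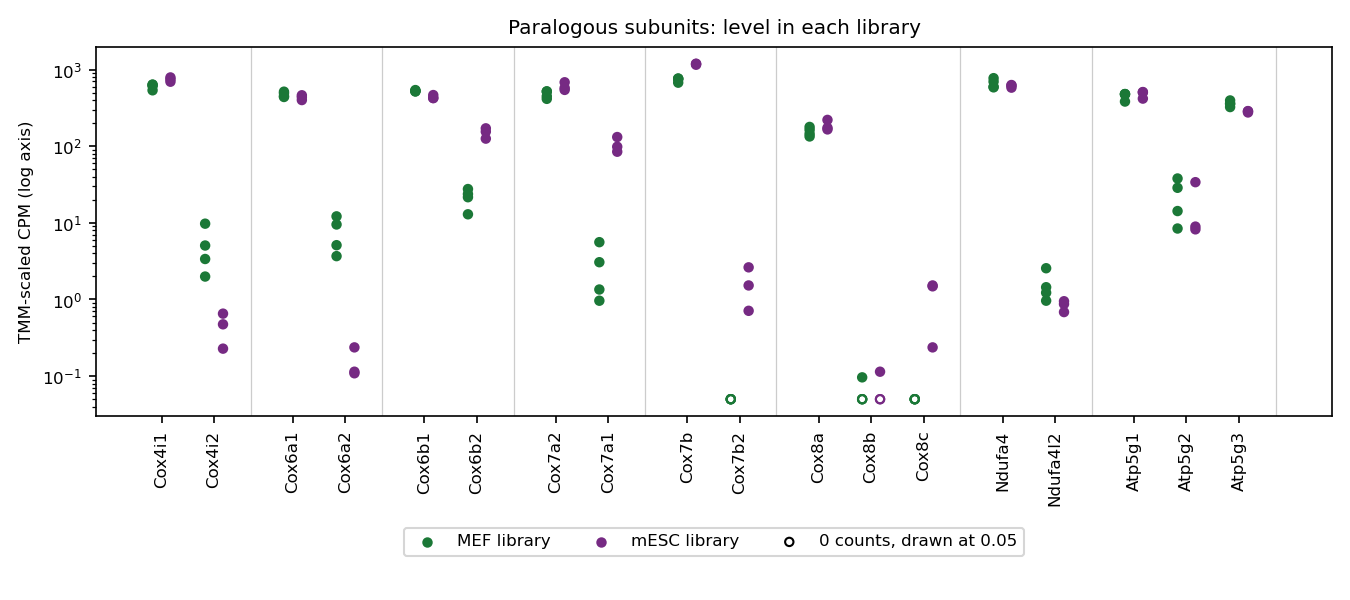
Level of paralogous subunits in each of 4 MEF and 3 mESC libraries, in TMM-scaled CPM on a log axis, with families separated by vertical lines and libraries at 0 counts drawn as open circles at 0.05. Cox7a1 and Cox6b2 stand higher and Cox6a2 and Cox4i2 lower in all mESC libraries, while among the forms with the most counts in a family Cox7b alone passed the threshold under TMM.

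Within families, the share of counts taken by each form does not depend on the scaling of libraries. Cox6b2 made up 2.39%, 4.22%, 5.03% and 4.01% of the Cox6b counts in MEFs and from 22.8% to 28.7% in mESCs, a difference of 21.6 percentage points. Cox7a1 made up 0.215% to 1.33% of Cox7a1 and Cox7a2 together in MEFs and 12.8% to 16.2% in mESCs. Neither range came near the other. Cox6a2 and Cox4i2 had mean shares of 1.54% and 0.806% of their families in MEFs and of 0.035% and 0.0602% in mESCs (exact permutation test, two-sided, p = 0.0571 for each).

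The 3 genes Atp5g1, Atp5g2 and Atp5g3 encode the same mature c subunit of the ATP synthase ring. Atp5g1 held 53.1% to 56.2% of their counts in MEFs and 59.6% to 63.2% in mESCs, and Atp5g3 41.1% to 45.3% and 34.6% to 39.3%. So the balance lay further toward Atp5g1 in every mESC library. Across the 11 shares tested, 6 reached p = 0.0286 (exact permutation test, two-sided), the smallest that the 35 splits of 4 and 3 libraries allow, and these were Cox6b2, Cox7a1, Cox7b2, Cox8c, Atp5g1 and Atp5g3. Adjusted over the 11 shares this became 0.0524, so that no share passed 0.05. The shares of Cox7b2 and Cox8c rest on few counts, 6 to 23 and 2 to 14 in the mESC libraries.

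The ATP synthase had 1 member higher and 3 lower among 17 tested, or 5.88% and 17.6%, against 22.8% and 25.0% of all tested genes. Atp5b encodes the catalytic beta subunit and had 990, 965, 714 and 870 CPM in MEFs and 1452, 1495 and 1426 CPM in mESCs. It was higher in every mESC library (log2 fold change 0.72, SE 0.128, Benjamini-Hochberg adjusted p = 0.000891 by the edgeR quasi-likelihood test). Atp5a1, its alpha partner in the catalytic head, had 383 to 416 CPM in MEFs and 428 to 484 CPM in mESCs. That difference of 0.23 on the log2 scale kept the libraries apart but passed the threshold with library totals alone only, at 0.51. The members that were lower under TMM were Atp5d of the central stalk (284 ± 1.21 CPM in MEFs, 196 ± 22.6 CPM in mESCs), Atp5pb of the peripheral stalk (540 ± 8.42 and 410 ± 65.5 CPM) and Atp5g3 (359 ± 29.1 and 282 ± 6.10 CPM), and with library totals alone all 3 kept a negative sign and none passed. The call for Atp5g3 was also lost when any of 6 libraries, all but O3, was left out (edgeR adjusted p = 0.0526 to 0.100) and with the filter of 1 count (0.0895), and that for Atp5pb without Y1 (0.0816) or Y2 (0.117).

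Ndufs5, Atp5g2 and Atp5j were singled out, after their values were seen, for differences between libraries within both cell types. Other members also differed more within a cell type than between cell types. Among them were Cox6c2 (3.62-fold range in MEFs against 1.04-fold between means) and Ndufb6 (2.26-fold against 1.27-fold). Ndufs5, a complex I subunit (chr4:123712710-123718202), had 74, 465, 60 and 26 counts in MEFs and 512, 35 and 553 in mESCs. Libraries O2, Y1 and Y3 were high and the other 4 low in both cell types. Ndufs5 had no call, and without O2 it had one, with a log2 fold change of 2.74 (edgeR adjusted p = 0.0165). The processed copy Ndufs5-ps (chr16:42955631-42955949 in GENCODE M21) differs from Ndufs5 in 2 of 319 bases and had 329, 122, 257 and 192 counts in MEFs and 146, 236 and 154 in mESCs. In CPM the copy was lowest in the 3 libraries where Ndufs5 was highest.

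Atp5g2 had 28.6, 14.2, 8.43 and 37.9 CPM in MEFs and 8.93, 8.22 and 33.9 CPM in mESCs, and shares 38.4% of its 50-base sequences with other genes. Atp5j, a subunit of the peripheral stalk, had 370 CPM in O2 and 453 CPM in Y2, against 170 to 188 CPM in the other 5 libraries. Its last 500 bases hold no shared 50-base sequence, whereas 23.1% of those in the last 500 bases of Atp5g2 are shared. Over all transcripts of Atp5j 8.89% are shared, and 12.7% of its exon bases overlap exons of Gabpa. The part of this sharing in the levels was not tested. Without Ndufs5, Atp5g2 and Atp5j, 11 of 78 tested members were higher and 14 lower, the counts found with them.

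**Figure D5:**
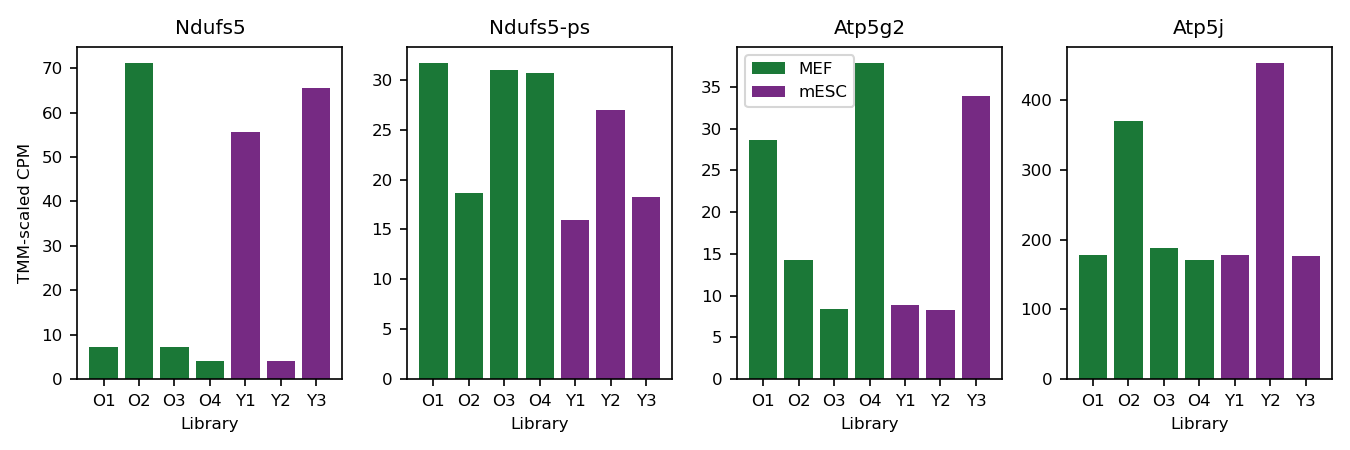
TMM-scaled CPM of Ndufs5, its processed copy Ndufs5-ps, Atp5g2 and Atp5j in the 4 MEF libraries (O1 to O4) and the 3 mESC libraries (Y1 to Y3), 1 bar per library. Ndufs5 is high in O2, Y1 and Y3, where Ndufs5-ps is low, and Atp5j is high in O2 and Y2.

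Some members with low counts share much of their 3′ sequence with other genes, and the part of this sharing in their levels was not tested. Uqcrc2, a core protein of complex III, had 17 to 50 counts in any library, and 100% of the 50-base sequences in its last 500 bases also lie in transcripts of Pdzd9, which had 1 count over all libraries. Cox5a, the subunit Va of complex IV, had 6.87 to 12.1 CPM with 41.0% of that stretch shared, and Ndufb6, a membrane arm subunit of complex I, 5.59 to 12.6 CPM with 46.1% shared. The core subunit Ndufs3, which had no call, had 21.7 to 40.9 CPM with 53.9% shared. Over 83 nuclear members with annotated transcripts, 34 had no shared 50-base sequence and 9 had over 40% of the last 500 bases shared. Not all of these 9 had low counts. Atp5o had 270 to 389 CPM with 68.3% shared, and Atp5h had 126 to 168 CPM with 42.6% shared. Levels of different members are therefore not ranked against each other, and counts near the 3′ end are not scaled by transcript length.

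Sequences before the start sites are shown for Cox7a1 and Cox6b2, the members with the largest rise, for Ndufa6, the complex I member with the largest called rise, and for Sdhd, added because its window holds a motif match. They come from RefSeq windows on GRCm38.p6, 5′ to 3′ on the gene's strand, cut where the GENCODE M21 gene begins. Their positions are chr7:30183921-30184143 (plus strand) for Cox7a1, chr7:4753095-4753344 (minus) for Cox6b2, chr15:82354323-82354541 (minus) for Ndufa6 and chr9:50603850-50604099 (minus) for Sdhd. Capitals mark a match to any of 4 motifs, CGCATGCGC of NRF1, CCGGAAG of GABPA, AAGGTCA of the ERR receptors and AAGATGG of YY1, factors known to bind promoters of respiratory genes.
Cox7a1: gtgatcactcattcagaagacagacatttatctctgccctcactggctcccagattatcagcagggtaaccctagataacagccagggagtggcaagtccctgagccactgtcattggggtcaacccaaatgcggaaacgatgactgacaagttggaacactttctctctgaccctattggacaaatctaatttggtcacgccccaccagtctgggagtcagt
Cox6b2: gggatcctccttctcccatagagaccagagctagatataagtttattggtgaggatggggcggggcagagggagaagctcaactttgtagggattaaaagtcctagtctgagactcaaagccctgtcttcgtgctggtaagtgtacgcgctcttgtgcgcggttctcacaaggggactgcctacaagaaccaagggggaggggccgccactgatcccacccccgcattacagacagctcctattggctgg
Ndufa6: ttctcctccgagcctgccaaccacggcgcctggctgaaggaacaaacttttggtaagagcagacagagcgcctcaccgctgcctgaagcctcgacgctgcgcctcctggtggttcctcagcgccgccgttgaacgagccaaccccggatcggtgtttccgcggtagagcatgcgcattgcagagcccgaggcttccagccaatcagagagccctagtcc
Sdhd: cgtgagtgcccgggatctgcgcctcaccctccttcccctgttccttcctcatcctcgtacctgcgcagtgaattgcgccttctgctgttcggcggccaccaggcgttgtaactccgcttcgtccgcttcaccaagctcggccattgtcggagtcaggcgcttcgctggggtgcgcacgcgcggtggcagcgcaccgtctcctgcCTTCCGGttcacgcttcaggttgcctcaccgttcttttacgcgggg
The single match is to GABPA, on the other strand of Sdhd, 46 bases before the RefSeq start.

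Across the full windows, 250 bases before to 50 after the start, 68 of the 85 nuclear members were found in the RefSeq table of 27025 genes. On either strand the NRF1 letters were in 8 of the 68 members (11.8%, against 1.95% of all genes), the GABPA letters in 17 (25.0%, against 9.93%), the ERR letters in 8 (11.8%, against 5.38%) and the YY1 letters in 11 (16.2%, against 7.28%). Among the 11 members that were higher in mESCs, all of which were in the table, they were found in 0, 1, 2 and 2, and among 11 of the 14 that were lower in 1, 2, 1 and 2. The 4 motifs were kept after 13 letter patterns had been counted, so they were chosen with their counts seen and are a description only. Of the patterns not kept, 5 were longer, shifted or looser forms of the NRF1, ERR and YY1 letters. Among the others, the CCAAT box was in 44.1% of the members and 41.1% of all genes, the SP letters GGGCGG in 41.2% and 38.2%, the E-box CACGTG in 8.82% and 8.09%, and ACTACAA, part of the ZNF143 motif, in 11.8% and 3.78%.

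Genes that build and serve the chain were followed in lists drawn up by function. The shares of each list are to be read against 22.8% higher and 25.0% lower for all tested genes under TMM, and no difference between a list and all genes was tested. Factors that assemble complexes I to V had 13 members higher (28.9%) and 5 lower (11.1%) in mESCs among 45 tested, with a median log2 fold change of 0.23 against 0.04 for all tested genes. Cox17, the copper chaperone of complex IV, rose from 56.2 ± 11.9 CPM (SD, n = 4) to 152 ± 14.9 CPM (SD, n = 3), and Dmac2, a distal membrane arm assembly factor, from 9.07 ± 2.5 to 28.4 ± 9.89 CPM. Tmem70, needed for the ATP synthase and complex I, fell from 84.2 ± 12.5 to 30.3 ± 0.807 CPM, and Coa5, needed for complex IV, from 46.1 ± 4.78 to 24.4 ± 8.28 CPM.

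Genes for the transcription, replication and RNA handling of mitochondrial DNA had 16 higher (55.2%) and 3 lower (10.3%) of 29 tested, with a median log2 fold change of 0.66. Prorp, the nuclease that trims the 5′ ends of mitochondrial transfer RNAs, had 20, 27, 21 and 26 counts in MEFs and 274, 272 and 335 in mESCs. Its log2 fold change was 3.42 (SE 0.310, Benjamini-Hochberg adjusted p = 8e-06 by the edgeR quasi-likelihood test). The terminator factor Mterf1a rose by 2.26 on the log2 scale, whereas the topoisomerase Top1mt fell by 1.53 and Fastk by 0.71, the last without passing when library totals alone were used. Tfam, which packages mitochondrial DNA, rose from 39.2 ± 7.79 to 82.8 ± 15.2 CPM, and the polymerase Polrmt had 13.3 ± 4.69 and 12.5 ± 4.75 CPM with no call.

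Proteins of the mitochondrial ribosome, which translates the 13 mitochondrial messages, had 24 higher (32.0%) and 8 lower (10.7%) of 75 tested, with a median of 0.24. Mrpl45 rose from 58.6 ± 4.39 to 147 ± 4.65 CPM and Mrps31 from 18.1 ± 4.14 to 44.7 ± 9.64 CPM. Mrps6 fell from 46.5 ± 8.24 to 21.9 ± 2.21 CPM and Mrpl54 from 137 ± 12.6 to 78.5 ± 6.31 CPM. With library totals alone, where 31.4% of all tested genes were higher and 20.1% lower, the counts were 20 higher (44.4%) and 3 lower (6.67%) for assembly factors, 19 (65.5%) and 1 (3.45%) for the handling of mitochondrial DNA and 39 (52.0%) and 4 (5.33%) for the ribosome. The ribosomal RNAs mt-Rnr1 and mt-Rnr2, the list of non-coding RNAs, were listed at 0.

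Nuclear regulators of respiratory genes had 4 higher (30.8%) and 3 lower (23.1%) of 13 tested. Esrrb, an orphan nuclear receptor of the pluripotency network, had 3 to 12 counts in MEFs and 1320 to 1702 in mESCs, and Gabpa rose from 26.0 ± 6.70 to 51.2 ± 9.80 CPM. The coactivator Ppargc1a had 11, 17, 21 and 28 counts in MEFs and 0, 2 and 4 in mESCs, and Myc fell from 38.2 ± 12.2 to 5.31 ± 2.72 CPM. Nrf1 had 28.5 ± 6.21 and 38.3 ± 3.89 CPM without a call under TMM, and with one when O1 was left out (edgeR adjusted p = 0.048).

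Electron carriers and other entry points had 7 higher (33.3%) and 2 lower (9.52%) of 21 tested. The testis form of cytochrome c, Cyct, had 15, 7, 3 and 8 counts in MEFs and 2535, 2923 and 2723 in mESCs, whereas the somatic Cycs had 75.5 ± 15.3 and 53.9 ± 18.6 CPM with overlapping libraries, and was called lower when Y3 was left out (edgeR adjusted p = 0.0174). The log2 fold change of Cyct was 8.20 (SE 0.307, Benjamini-Hochberg adjusted p = 2.26e-08 by the edgeR quasi-likelihood test). Coq8a, of coenzyme Q synthesis, rose from 0.632 ± 0.383 to 3.89 ± 0.680 CPM. Coq10b fell from 104 ± 36.3 to 29.3 ± 6.37 CPM, and Etfa, which passes electrons from fatty acid oxidation, had a log2 fold change of -0.43 that missed the threshold with library totals alone, and when O1, O4, Y1, Y2 or Y3 was left out (edgeR adjusted p = 0.0506 to 0.104).

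Carriers of ADP/ATP, protons and metabolites had 3 higher (23.1%) and 4 lower (30.8%) of 13 tested. Slc25a4, the ADP/ATP carrier of muscle and heart, fell from 1233 ± 55.1 CPM (SD, n = 4) to 261 ± 36.3 CPM (SD, n = 3), and the pyruvate carrier subunit Mpc2 from 96.5 ± 7.92 to 24.5 ± 1.46 CPM. The aspartate/glutamate carrier Slc25a13 rose from 19.6 ± 6.18 to 112 ± 17.2 CPM and Ucp2, an uncoupling protein homologue, from 5.86 ± 1.35 to 17 ± 2.55 CPM.

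The tricarboxylic acid cycle with pyruvate dehydrogenase had 4 higher (22.2%) and 5 lower (27.8%) of 18 tested, and import and inner membrane structure 4 higher (21.1%) and 3 lower (15.8%) of 19. For the cycle both shares lay near those of all tested genes. Pdhb, a subunit of pyruvate dehydrogenase, rose from 39.3 ± 6.13 to 110 ± 14.2 CPM and the succinyl-CoA ligase subunit Suclg2 from 3.74 ± 1.04 to 10.2 ± 1.60 CPM. Citrate synthase (Cs) and malate dehydrogenase (Mdh2) had log2 fold changes of -0.55 and -0.53, and neither passed with library totals alone. Mdh2 also missed the threshold when O1, O2, Y2 or Y3 was left out (edgeR adjusted p = 0.0693 to 0.129). Mfn2, which joins outer membranes in fusion, fell from 27.8 ± 6.01 to 6.67 ± 2.56 CPM, and Timm17b of the inner membrane translocase from 165 ± 17.9 to 98.1 ± 10.1 CPM, while Tomm70a and Timm44 rose by log2 fold changes of 0.69 and 0.59. Both of these calls were lost when O3 or Y3 was left out, and that of Timm44 also without Y1 (edgeR adjusted p = 0.0512 to 0.126). With library totals alone the regulators had 6 higher (46.2%) and 3 lower (23.1%), and the electron carriers 10 (47.6%) and 1 (4.76%). On the same scale the carriers of ADP/ATP, protons and metabolites had 4 higher (30.8%) and 3 lower (23.1%). The cycle had 8 higher (44.4%), and import had 9 higher (47.4%) and 2 lower (10.5%).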

How the data were processed

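RNA of 4 MEF and 3 mESC libraries was measured with a 3′ biased protocol that adds a 10 bp molecular identifier at the poly(A) priming step. The authors demultiplexed with Sabre, trimmed with Cutadapt, and aligned to mm10 with STAR, for which the study's methods and the submitters' processing notes give different versions. Je then collapsed reads sharing an identifier, and featureCounts assigned the uniquely mapping ones to exons. The deposited counts are whole numbers that the authors did not normalize. Neither the annotation release nor the strand setting is given in the sources used here. Every column of per-sample values was used, leaving 0. Library totals ran from 6528643 to 11441278 counts.

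Differences were tested with edgeR 4.0.16 (limma 3.58.1, R 4.3.3) on all 7 libraries, using TMM, filterByExpr and a quasi-likelihood fit with cell type as its only term. The Benjamini-Hochberg adjustment ran over all tested genes, with a threshold of 0.05. TMM-scaled CPM are counts divided by effective library size. Shares within paralogue families were compared by exact permutation tests. Shared sequence was counted as 50-base sequences of GENCODE M21 transcripts on GRCm38. The code was tested on simulated data. Alternatives were library totals alone, DESeq2 size factors, DESeq2 1.42.0, a fold change of 1.5, filters of 1 count in all and of 10 counts per library within a cell type, nuclear rows only, and each library left out.

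The members and lists were chosen with earlier results of these data known. Named members are the mitochondrially encoded ones, up to 3 called members in each direction per complex, paralogue families, untested members and catalytic core subunits, 1 of which is not reported here. From each list the 2 called genes at either end of the log2 fold changes are named. Ndufs5, Atp5j, Atp5o, Atp5h, Uqcrc2, Cox5a, Ndufb6, Sdhc, Cox6c2, Ndufs6, Ndufa1, Ndufa3, Ndufa8 and Ndufa12 are named outside this rule. So are Cyc1, Cycs, Nrf1, Tfam, Polrmt and Actn2.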

Additional observations from a re-analysis of the deposited data

Results flagged for a closer look

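In the 4 MEF libraries, 57 values were checked for a single library far from the others, and 5 stood out, where chance gives about 1 in 20, or 2.85. Atp5g1 was at 381.9 CPM in O3, against 474.9 to 479 CPM in the other MEF libraries, and without O3 its log2 fold change moved from 0.07 to -0.01. Ndufv2 was at 257.9 CPM in O4, against 203.5 to 211.8 CPM. The nuclear encoded complex I members summed to 0.8037% of counts in O4, against 0.696% to 0.7037% in the others, and O4 was also the MEF library with 654 counts on Gm28437, the nuclear copy of mt-Co3. Their relation was not tested. Cox8b was at 0.09638 CPM, or 0.07199% of the Cox8 counts, in O1 and at 0 elsewhere in MEFs, which rests on 1 count.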

How the results depend on the processing

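With library totals alone the members called higher went from 11 to 26 and those called lower from 14 to 3, and testing beyond a 1.5-fold change left 5 and 3. DESeq2 size factors, DESeq2 and the filter of 1 count each gave 13 and 13, and the filter of 10 counts 11 and 16. Nuclear rows alone gave 11 and 14, which could not differ, because every mitochondrial row was listed at 0 in all 7 libraries. Leaving out 1 library gave 10 to 12 higher and 11 to 14 lower. No mitochondrially encoded member could be tested under any of them. TMM scaling took the ratio of summed shares to 1.025 for complex I, 0.9993 for complex II and 1.111 for complex III. It took the ratio to 1.212 for complex IV, 1.056 for complex V and 1.081 for all nuclear members. Taking the counts of nuclear encoded genes as denominator could not change a ratio, because the mitochondrial rows hold no counts. Of 504 alternative values for 36 named members, 448 kept direction and call, and these include the values of nuclear rows alone, which could not differ. A further 33 lost and 11 gained a call, and 12 changed sign, none of them called. With library totals alone these were Cox6a1 (0.1537), Cox6b1 (0.0196) and Ndufa4 (0.1658). With the filter of 1 count they were Ndufv1 (-0.0089) and Uqcrfs1 (-0.0017). Leaving out 1 library gave -0.0105 to 0.1553 for Atp5g1, -0.0641 to 0.13 for Ndufv1 and -0.0283 to 0.0736 for Uqcrfs1. The cause was not tested. No paired analysis was possible because no source ties a numbered count column to a numbered sample. Leaving out Ndufs5, Atp5g2 and Atp5j was chosen after seeing the data.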
